A study of Mus musculus with 4 samples.

Results

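The 10 genes described here encode the core and the accessory subunits of Polycomb Repressive Complex 2 (PRC2) and were chosen by name: Ezh1, Ezh2, Eed, Suz12, Rbbp4, Rbbp7, Mtf2, Phf19, Jarid2 and Aebp2. The choice was made with earlier results of these data known, so the counts set beside backgrounds below describe these genes and test no enrichment. All of them were found among the 37310 genes of the GENCODE M1 annotation on mm9, 22380 of which are protein-coding. The question was where the binding sites of Myc and of its partner Max lie in relation to the promoters of these genes in mouse embryonic stem cells (ESCs) of the E14 line. Of the 4 samples, 2 had a list of ChIP-Seq peaks that was used here, with 1 library each. The Bio-Myc ChIP was made on streptavidin beads (MyOne T1) from 1 stable E14 clone that carries Biotin-tagged Myc, and the Max ChIP was made with anti-Max (sc197) from parental wild type E14 cells. By the study's methods the tagged clones were made from BirA-ES cells. In the clone, the tag sits at the N-terminus and the transgene is driven by the ubiquitous EF1α promoter, so the tagged Myc is made in addition to the endogenous protein. The Bio-Mock ChIP, on the same beads, and the IgG ChIP served as the controls of the authors' peak calling and were not analysed here on their own. For the mock the labels name parental wild type cells, whereas the study's methods name BirA-ES cells that lack a tagged protein. Both ChIPs thus differ in the cells, the reagent and the control, and a difference between their lists cannot be told apart from these. There are no replicates, so no value below has an error between cultures, no test was made, and the number of reads behind the lists is unknown. Peak lists hold no expression, and the labelled cell type was therefore not checked against marker genes.

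PRC2 places methyl groups on lysine K27 of histone H3, a mark of silent genes, and in ESCs it keeps many regulators of development off. The catalytic subunit is Ezh2 or its paralog Ezh1. Eed binds the methylated histone tail and Suz12 holds the complex together, and both are needed for its activity, while Rbbp4 and Rbbp7 are closely related histone-binding proteins that also belong to other chromatin complexes. Mtf2 and Phf19, of the Polycomb-like family, and Jarid2 and Aebp2, with their DNA-binding domains, are accessory subunits that help the complex to find chromatin and tune its activity. Myc and Max are bHLH-Zip proteins that bind DNA as a heterodimer at the E-Box CACGTG and, less strongly, at variants of it. Max also pairs with itself and with other proteins of the family.

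A gene was counted as having a peak where at least 1 bp of a peak lay no farther than 1 kb from an annotated TSS. By this rule 5 of the 10 PRC2 genes had a Bio-Myc peak, namely Ezh2, Eed, Suz12, Rbbp4 and Mtf2, and the share over all protein-coding genes was 14.6%. The calls at Eed and Mtf2 rest on scores near the limit of the list, and at a stricter p-value limit of 1e-11 only Ezh2, Suz12 and Rbbp4 were left, 3 of 10 with a background of 10.2%. The same 5 genes and Ezh1, Phf19 and Aebp2 had a Max peak, which makes 8 of 10, where the share over protein-coding genes was 34.8%. With the Max list cut to its 3962 highest-scoring peaks, as many as in the Bio-Myc list, Ezh2, Suz12, Rbbp4 and Aebp2 were left, 4 of 10 with a background of 15.5%. Thus 5 of the 10 PRC2 genes had both peaks, where the share over protein-coding genes was 12.7%. No PRC2 gene had Bio-Myc without Max, which is near the background, since 86.5% of protein-coding genes with Bio-Myc also had Max. Rbbp7 and Jarid2 had a peak of neither list. With the region widened to 5 kb, Aebp2 was added to the Bio-Myc genes, 6 of 10 with a background of 16.6%, and the Max count stayed at 8 of 10 with a background of 38.6%. Among the 3 core subunits that every PRC2 complex needs in some form, the catalytic one was split, with both peaks at Ezh2 and a Max peak only at Ezh1, while Eed and Suz12 had both. The histone-binding pair was split too, with both peaks at Rbbp4 and neither at Rbbp7, and of the 4 accessory genes only Mtf2 had both within 1 kb.

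**Figure D1:**
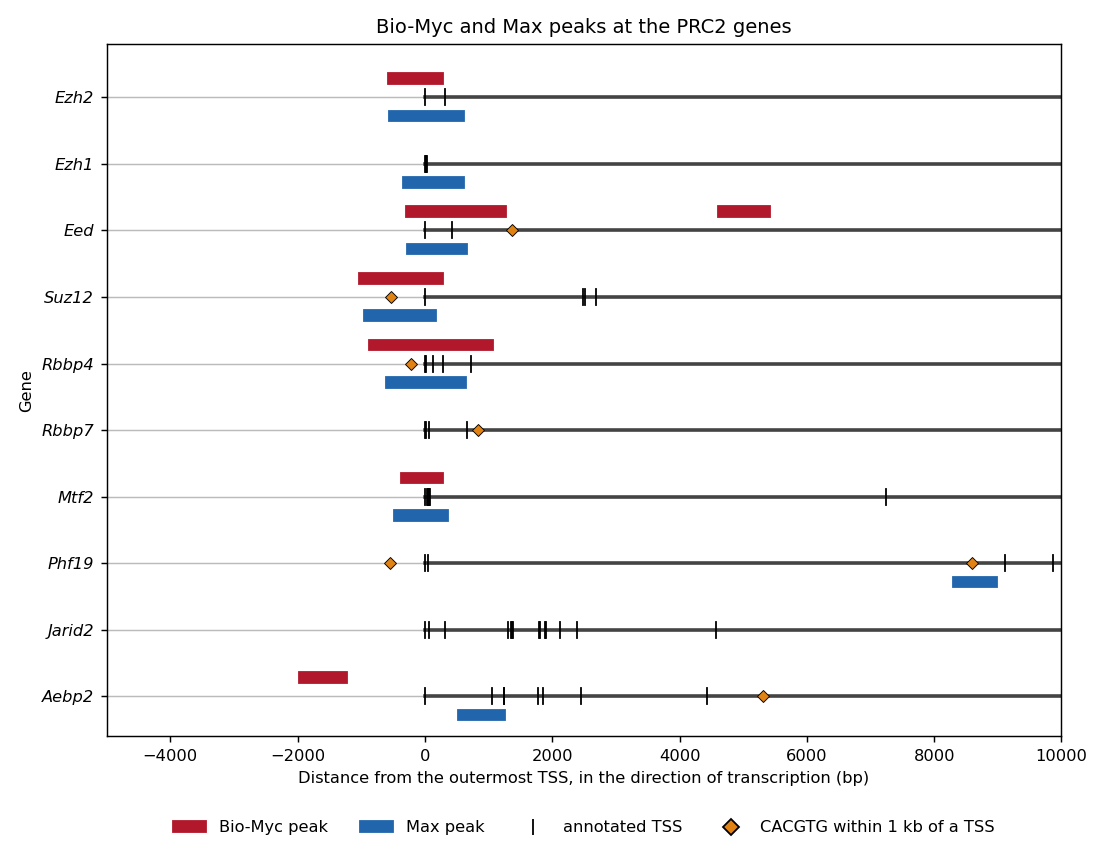
Peaks of the Bio-Myc list (red, above each line) and of the Max list (blue, below) around the 10 PRC2 genes, drawn to scale against the distance in bp from the outermost TSS in the direction of transcription; vertical ticks are annotated TSSs and diamonds are CACGTG sites within 1 kb of a TSS. At Ezh2, Eed, Suz12, Rbbp4 and Mtf2 the peaks of both lists lie over the start of the gene, at Aebp2 they lie on either side of the outermost TSS without touching each other, and the lines of Rbbp7 and Jarid2 hold no peak.

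The background depends on the kind of promoter. A promoter was called CpG-rich where the 500 bp on either side of the outermost TSS had a GC content of at least 55% and a ratio of observed to expected CpG of at least 0.6. Of the 8597 protein-coding genes of this kind, 27.3% had a peak of Bio-Myc, 61.9% of Max and 24.4% of both, and of the other 13783 genes the shares were 6.75%, 17.9% and 5.35%. The outermost TSS was CpG-rich in 7 of the PRC2 genes, with GC contents from 60.3% at Ezh1 to 70.9% at Suz12. Of these 7 genes, 4 had Bio-Myc, 6 had Max and 4 had both, to be read against the 27.3%, 61.9% and 24.4% of CpG-rich genes, and the Max peak of Phf19 was at an internal TSS. It was not in Mtf2 (52.5% GC), Jarid2 (49.3%) and Aebp2 (46.8%), although at Jarid2 and Aebp2 some TSSs further downstream were. Of these 3 genes, 1 had Bio-Myc, 2 had Max and 1 had both, to be read against 6.75%, 17.9% and 5.35%. The Max peak of Aebp2 did not cover the outermost TSS, which set its class, but CpG-rich TSSs 1050 bp or more downstream. The gene with both was Mtf2, which missed the CpG-rich class on GC content only, since its ratio of observed to expected CpG was 0.81. Many annotated TSSs give a gene more chances to be counted, and among the 4560 CpG-rich genes with 3 or more TSSs the shares were 29.6% for Bio-Myc, 63.4% for Max and 26.1% for both. Given a Max peak, 36.4% of protein-coding genes also had a Bio-Myc peak, and of the PRC2 genes 5 of 8 did (62.5%). Given a Bio-Myc peak, 86.5% of protein-coding genes also had a Max peak, and of the PRC2 genes 5 of 5 did.

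**Figure D2:**
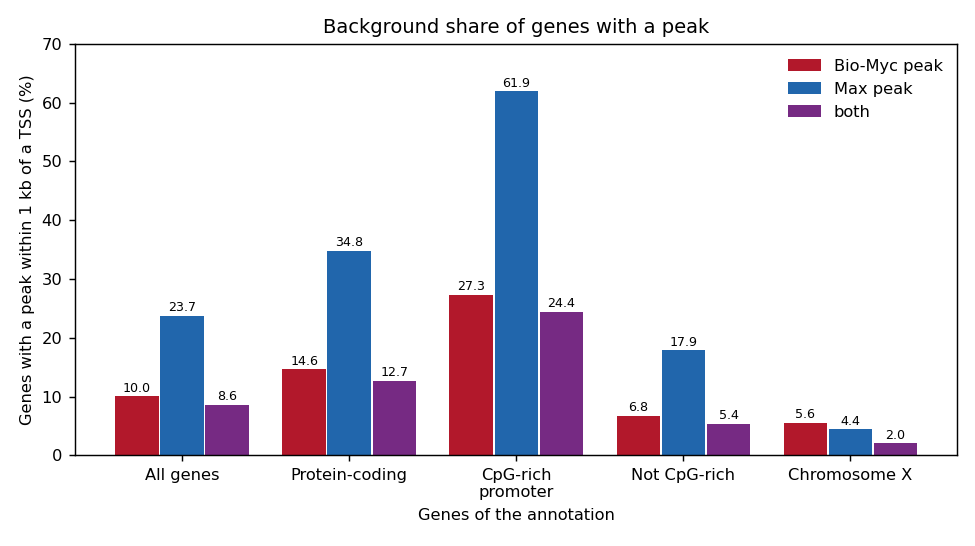
Share of genes (%) with a peak of Bio-Myc, of Max or of both lists within 1 kb of a TSS, for all annotated genes, protein-coding genes, those with and without a CpG-rich promoter and those on chromosome X; bars start at 0 and no error is drawn because each list is 1 library. The shares are highest for CpG-rich promoters (27.3%, 61.9% and 24.4%) and lowest for chromosome X (5.58% for Bio-Myc and 4.40% for Max).

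The sequences below are shown because they are the exact E-Boxes under a peak of a PRC2 gene, together with those near the promoter that no peak covers, which lie within 1 kb of the outermost TSS or, at Eed, next to the promoter peak. Each is 30 bases of mm9 read 5′ to 3′ on the strand of the gene, with the CACGTG in capitals.
Suz12, chr11:79806066-79806095, plus strand, under both peaks: ggtggcttggggCACGTGgcggccagggga
Rbbp4, chr4:129012821-129012850, minus strand, under both peaks: tagggtgtatgtCACGTGatctgcacgggc
Phf19 internal, chr2:34760933-34760962, minus strand, under the Max peak: tacagagcggggCACGTGggactgcagggt
Phf19 upstream, chr2:34770078-34770107, minus strand, no peak: gtgtatgccttgCACGTGgtttcgcgggag
Rbbp7, chrX:159199151-159199180, plus strand, no peak: ctgctgctgttcCACGTGgattggatctat
Eed downstream of the promoter peaks, chr7:97128113-97128142, minus strand, no peak: aagagtactagaCACGTGttctaataatta
Eed intronic, chr7:97124816-97124845, minus strand, under the intronic Bio-Myc peak: ttctctgattgcCACGTGcctggtaagccg
The E-Box of Suz12 is 530 bp upstream of the TSS and outside the gene, and that of Rbbp4 is 224 bp upstream of the outermost TSS. The upstream E-Box of Phf19 is at almost the same distance, 549 bp upstream of the outermost TSS, but the nearest Max peak was 8843 bp away. That of Rbbp7 lies in an intron, 829 bp downstream of the outermost TSS, and no peak of either list was within 1 Mb of it. A further 5 E-Boxes, 1 at Ezh2, 1 at Ezh1 and 3 at Aebp2, lay within 1 kb of a TSS inside the gene, had no peak and are not shown.

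CACGTG was searched under the whole peak that lay nearest to each gene; the sequence is its own reverse complement, so the search covers both strands. It was held by 2 of the 5 Bio-Myc peaks within 1 kb of a PRC2 gene, those of Suz12 and Rbbp4, and by 50.1% of all Bio-Myc peaks. It was held by 3 of the 8 Max peaks, those of Suz12, Rbbp4 and Phf19, and by 38.0% of all Max peaks. With the variants CACGCG or CACGAG or CATGTG or CATGCG, searched on both strands, a match was found in 4 of the 5 peaks of Bio-Myc and in 7 of the 8 of Max, beside 93.8% and 85.7% of the lists, so that a match of this kind is the rule in peaks of this width. Mtf2 was the gene with no match to CACGTG or a variant in either peak. Of all protein-coding genes, 27.8% had a CACGTG within 1 kb of the outermost TSS, and the share was 49.8% of the genes with a Bio-Myc peak, 41.8% of those with a Max peak and 20.1% of those with neither. By this window Suz12, Rbbp4, Rbbp7 and Phf19 had one, and at Rbbp7 and Phf19 that site had no peak.

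Further sites are shown for Ezh2, Ezh1, Eed, Mtf2 and Aebp2, whose promoter peaks hold no CACGTG, and for Suz12, whose peaks hold further kinds of site. Of several CACGCG under the Max peaks of Ezh1 and Aebp2, 1 is given for each. The E-Box variants under the promoter peaks of Eed, Suz12 and Rbbp4 and the CATGTG under the Max peak of Aebp2 are not shown. The E2F-type sites are the 4 sequences TTTCCCGC, TTTCGCGC, TTTGCCGC and TTTGGCGC, searched on both strands as the sites of the E2F factors, which control genes of the cell cycle. A site on the opposite strand appears as its reverse complement, so that GCGGGAAA stands for TTTCCCGC and CGCGTG for CACGCG. The capitals mark the site.
Ezh2 CACGCG, chr6:47545174-47545203, minus strand, under both peaks: ctgtcactcgcgCACGCGctggtgagcctc
Ezh1 CACGCG, chr11:101087793-101087822, minus strand, under the Max peak: cctcagagtgcgCACGCGcacggaggggag
Aebp2 CACGCG, chr6:140572010-140572039, plus strand, under the Max peak: cgctgcctcctcCGCGTGagtgcgcgcgtt
Ezh2 E2F-type, chr6:47545008-47545037, minus strand, under the Max peak: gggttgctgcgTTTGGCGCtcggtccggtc
Suz12 E2F-type, chr11:79806378-79806407, plus strand, under both peaks: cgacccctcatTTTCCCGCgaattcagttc
Eed E2F-type, chr7:97129285-97129314, minus strand, under both peaks: tcgagagggcgGCGGGAAAaccgcccgccc
Mtf2 E2F-type, chr5:108494729-108494758, plus strand, under both peaks: accgctagtccGCGGGAAAccaaaatggcg
An E2F-type site was held by the Bio-Myc and the Max peak of Suz12, Eed and Mtf2, in each case TTTCCCGC, and by the Max peak of Ezh2. The share over the lists was 12.4% for Bio-Myc and 9.40% for Max, and among peaks within 1 kb of a protein-coding TSS 14.7% and 11.5%. These shares are not matched for peak width or CpG content. The Bio-Myc peaks of Eed (1572 bp) and Suz12 (1327 bp) are wider than the median of 1003 bp, and that of Mtf2 (648 bp) is narrower. None of the E2F-type sites shared bases with an E-Box or a variant. A match of letters is a description of the sequence and shows no binding of an E2F factor, which was not measured.

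Of the catalytic subunits, Ezh2 had the Bio-Myc peak with the highest score of all PRC2 genes. The promoters of Ezh2 and Suz12, reported earlier as Myc targets, were the positive controls with which the study compared tags before it sequenced the Bio-Myc ChIP. The score of the authors is minus 10 times the log10 of the MACS p-value, it starts at 80, and within a list rank 1 is the highest. The gene of Ezh2 (ENSMUSG00000029687.9) occupies 47480273 to 47545340 of chromosome 6, minus strand, with 9 annotated TSSs. The Bio-Myc peak, spanning 47545058 to 47545924, had a score of 370 and rank 290 of 3962, above 92.7% of the list. The Max peak, spanning 47544729 to 47545902, had a score of 409 and rank 1391 of 11570, above 88.0% of the list. Both covered the outermost TSS, which starts 1 coding transcript. The TSS 311 bp further downstream, which starts 4 coding transcripts, was covered by the Max peak only, since the Bio-Myc peak ended 29 bp before it. The centres of the peaks were 176 bp apart, the Bio-Myc one 151 bp upstream and the Max one 25 bp downstream of the outermost TSS. The only E-Box variant under them, the CACGCG shown above, is in a noncoding part of an exon, 149 bp downstream of the outermost TSS. The TTTGGCGC of the Max peak begins 3 bp downstream of the TSS of the 4 transcripts, outside the Bio-Myc peak.

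Ezh1 (ENSMUSG00000006920.8), the second catalytic subunit, occupies 101052429 to 101087777 of chromosome 11, minus strand. The Max peak at 101087161 to 101088114 (score 208, rank 4204) covered all 3 of its coding TSSs and held 3 CACGCG but no CACGTG. No Bio-Myc peak overlapped it, and the nearest was 89.1 kb upstream, at the TSS of Psme3, with a score of 1273 and rank 9. Among the 19075 protein-coding genes without a Bio-Myc peak within 1 kb, 63.5% were farther from the next one, so the distance of Ezh1 is within the usual range. The surroundings of Ezh1 were dense in Max peaks, with 10 within 100 kb of the gene, the most of the PRC2 genes, and 1 Bio-Myc peak. Both promoters of the catalytic pair were CpG-rich, with a GC content of 63.5% at Ezh2 and 60.3% at Ezh1 and a ratio of observed to expected CpG of 0.92 and 0.80.

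Eed (ENSMUSG00000030619.8), the subunit that reads the methylated histone tail, occupies 97103166 to 97129493 of chromosome 7, minus strand. Its Bio-Myc peak, spanning 97128222 to 97129793, was 1572 bp wide with a score of only 90.9 and rank 3301, above 16.6% of the list. The Max peak, spanning 97128834 to 97129772, had a score of 165 and rank 5587, above 51.7% of its list, and lay wholly inside the Bio-Myc peak. The centres were 296 bp apart, the widest gap among the 5 PRC2 genes with both peaks, with the Bio-Myc centre in a coding exon and the Max centre in a noncoding part of an exon. The TTTCCCGC shown above was 3 bp from the Max centre. A CACGTG was not under these peaks but 92 bp beyond the edge of the Bio-Myc peak, inside the gene. Both peaks held 4 matches to E-Box variants, 2 of them CATGCG on opposite strands that overlap in 1 palindrome, CGCATGCG, which occurs in 6.03% of the first list and 4.59% of the second. Eed was also the only PRC2 gene with a second Bio-Myc peak within 5 kb of a TSS, from 97124071 to 97124896 in an intron, with a score of 105, rank 2697 and 1 E-Box. This intronic peak scored above the promoter peak and no Max peak overlapped it.

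Suz12 (ENSMUSG00000017548.9), the scaffold of the complex, occupies 79806608 to 79847625 of chromosome 11, plus strand, and was the only PRC2 gene that scored above 90% of the peaks in both lists. Its Bio-Myc peak, spanning 79805565 to 79806891, had a score of 321 and rank 386, above 90.3% of the list. Its Max peak, from 79805657 to 79806777, reached a score of 721 and rank 420, above 96.4%. The centres were 11 bp apart, the closest of the 5 pairs, at 380 bp and 391 bp upstream of the TSS, and thus farther upstream than those of any other PRC2 gene with both peaks. The E-Box was 147 bp from the Bio-Myc centre and 136 bp from the Max centre on the upstream side, and the TTTCCCGC was on the downstream side, 219 bp from the TSS. The only coding TSS is the one covered, and the 4 other TSSs, of transcripts with a retained intron or subject to nonsense-mediated decay, lay 2197 bp or more from the Bio-Myc peak.

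Rbbp4 (ENSMUSG00000057236.9), 1 of the histone-binding pair, occupies 128984344 to 129012614 of chromosome 4, minus strand. Its Bio-Myc peak, spanning 129011545 to 129013485, was the widest of the PRC2 genes at 1941 bp, beside a median of 1003 bp over the list, and had a score of 206 and rank 912. Its Max peak, spanning 129011973 to 129013220, had a score of 326 and rank 2106. Both covered all 3 coding TSSs of Rbbp4 and also a TSS of Zbtb8os, which is transcribed in the opposite direction, so the lists do not tell to which of these genes the peaks belong. It was the only peak pair of the PRC2 genes with another gene within 1 kb. The E-Box lies between the peak centres and the upstream edge, 321 bp from the Bio-Myc and 240 bp from the Max centre.

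Rbbp7 (ENSMUSG00000031353.7), the paralog of Rbbp4, occupies 159198334 to 159217024 of chromosome X, plus strand, and is the only PRC2 gene on that chromosome. Bio-Myc came no nearer than 1183.1 kb, downstream at Zrsr2, and Max no nearer than 2621.7 kb, upstream at Pdha1. Of all protein-coding genes without a Max peak within 1 kb, 1.41% were farther from one, and of those on chromosome X 16.3%. For Bio-Myc the shares were 11.8% and 37.3%. Peaks were rarer on chromosome X as a whole, where 5.58% of the 932 protein-coding genes had a Bio-Myc and 4.40% a Max peak within 1 kb. The promoter of Rbbp7 is CpG-rich (70.2% GC) and has a CACGTG 829 bp downstream of the outermost TSS, so neither of these features, which go with more peaks over all genes, was accompanied by a peak here. Reads that map to more than 1 place were removed by the authors, and how well this promoter can be mapped was not tested.

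**Figure D3:**
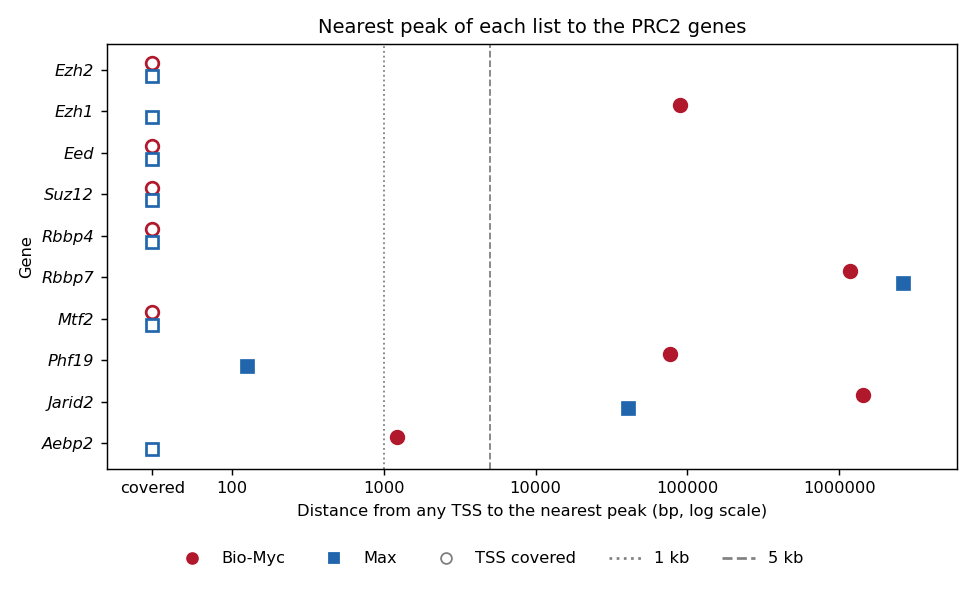
Distance in bp (log axis) from any annotated TSS to the nearest Bio-Myc peak (red circles) and Max peak (blue squares) for each PRC2 gene; open symbols at the left mark a peak that covers a TSS, and the vertical lines mark 1 kb and 5 kb. A peak covers a TSS for 5 genes in the Bio-Myc list and 7 in the Max list, the Max peak of Phf19 is 126 bp away and the Bio-Myc peak of Aebp2 1219 bp, and all other distances are 40.8 kb or more.

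Mtf2 (ENSMUSG00000029267.10), a Polycomb-like subunit, occupies 108494693 to 108538023 of chromosome 5, plus strand. Its Bio-Myc peak, spanning 108494324 to 108494971, had a score of 86.2 and rank 3569, the lowest of the PRC2 genes and above 9.9% of the list. Its Max peak, spanning 108494206 to 108495061, had a score of 177 and rank 5109, above 55.8%. The 648 bp of the Bio-Myc peak lay wholly within the Max peak and the centres were 14 bp apart, 46 bp and 60 bp upstream of the outermost TSS. Of 5 coding TSSs, both peaks covered 3. The TTTCCCGC shown above was 47 bp downstream of the outermost TSS, in a noncoding part of an exon, and was the only match of any searched kind under the peaks.

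Phf19 (ENSMUSG00000026873.3), the other Polycomb-like subunit in the list, occupies 34749277 to 34769546 of chromosome 2, minus strand. It was counted for Max only through an internal TSS. The peak, centred in an intron from 34760553 to 34761247, scored 121 and ranked at 7896, the lowest of the 8 genes. It ended 126 bp from the start of a noncoding transcript and lay 8299 bp from the outermost TSS. Within 1 kb of its coding TSS, at 34769496, there was no peak of either list. The internal peak held the CACGTG shown above, 48 bp from its centre, the closest E-Box to a peak centre among the PRC2 genes. For Bio-Myc, the next peak was 77.1 kb downstream, at Fbxw2, with a score of 402 and rank 241, and 66.4% of the protein-coding genes without a Bio-Myc peak were farther from one.

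Jarid2 (ENSMUSG00000038518.8), a DNA-binding subunit of the Jumonji family without demethylase activity, occupies 44824843 to 45017012 of chromosome 13, plus strand, and has 17 annotated TSSs, the most of the PRC2 genes. None of them was within 5 kb of a peak. The nearest Max peak was 40.8 kb upstream, with a score of 124, rank 7672 and 1 E-Box, and 65.3% of the genes without a Max peak were farther away. For Bio-Myc the distance was 1425.6 kb, also upstream, and only 9.22% of the genes without such a peak were farther. The distance to Bio-Myc was thus long and that to Max usual for a gene without a peak. No CACGTG lay within 1 kb of any TSS of Jarid2.

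Aebp2 (ENSMUSG00000030232.10), a zinc-finger subunit, occupies 140570970 to 140626993 of chromosome 6, plus strand, and had both peaks within 5 kb, but at different places. The Max peak, spanning 140571489 to 140572225, had a score of 299.6 and rank 2469, and covered 3 coding TSSs at 1050 bp, 1240 bp and 1246 bp downstream of the outermost one. These TSSs are CpG-rich, with GC contents from 68.8% to 74.2%, while the outermost has 46.8%. The Bio-Myc peak, spanning 140568996 to 140569751, had a score of 102 and rank 2831 and lay 1219 bp upstream of the outermost TSS, just outside the 1 kb window. The peaks did not overlap, and neither held a CACGTG. The Max peak held 3 CACGCG downstream of the covered TSS at 1050 bp and 1 CATGTG.

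Across the genes with both peaks within 1 kb, the peaks overlapped each other in all 5. Their centre distances were 11 bp at Suz12, 14 bp at Mtf2, 81 bp at Rbbp4, 176 bp at Ezh2 and 296 bp at Eed, and the median over all 3071 overlapping pairs of the lists was 108 bp with quartiles of 49 bp and 210 bp. At Eed, Suz12, Rbbp4 and Mtf2 the shorter peak lay wholly inside the longer one, and at Ezh2 97.5% of it did. This is usual, since the median over all 3071 overlapping pairs was 100% of the shorter peak.

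The scores put the genes in the following order within each list, which was open to no test. In the Bio-Myc list Ezh2 (370) and Suz12 (321), the positive controls of the study, came first. Rbbp4 (206) followed, and after a gap Eed (90.9) and Mtf2 (86.2). In the Max list Suz12 (721) came first, followed by Ezh2 (409), Rbbp4 (326), Aebp2 (299.6), Ezh1 (208), Mtf2 (177), Eed (165) and Phf19 (121). The protein-coding genes with a Bio-Myc peak had a median score of 142 with quartiles of 103 and 224, so Ezh2 and Suz12 lay above the upper quartile, Rbbp4 between the median and that quartile, and Eed and Mtf2 below the lower quartile. For Max the median was 193 with quartiles of 125 and 321. Suz12, Ezh2 and Rbbp4 lay above the upper quartile, Aebp2 and Ezh1 above the median, Mtf2 and Eed below it, and Phf19 below the lower quartile. The Max list is longer than the Bio-Myc list and starts at the same score, so a percentile describes a peak within its own list and those of the 2 lists are not compared. Without replicates, it cannot be told whether neighbours in these orders differ.

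**Figure D4:**
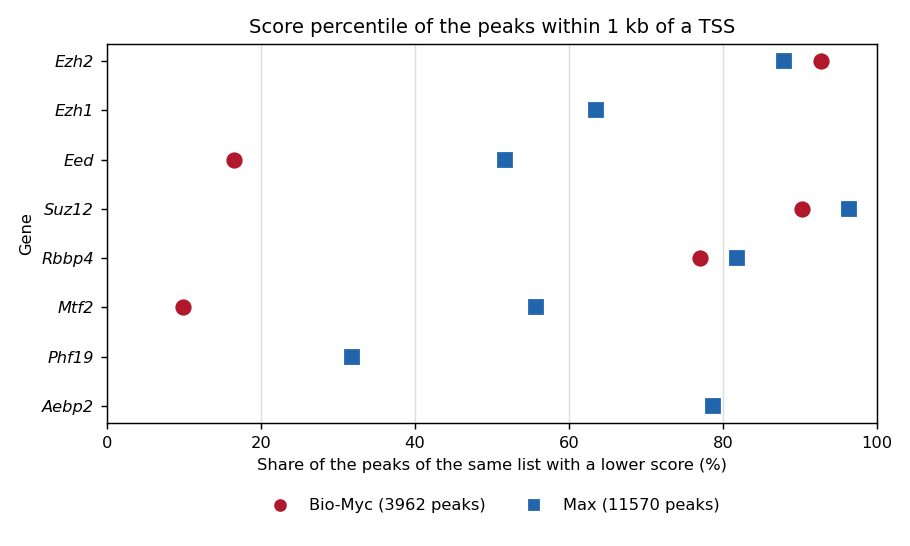
Share of the peaks of the same list (%) with a lower score than the peak within 1 kb of each PRC2 gene, for the Bio-Myc list (red circles, 3962 peaks) and the Max list (blue squares, 11570 peaks), each read on its own because the lists differ in length. Within the Bio-Myc list Ezh2 (92.7%) and Suz12 (90.3%) stand highest and Mtf2 (9.9%) lowest, and within the Max list Suz12 (96.4%) stands highest and Phf19 (31.8%) lowest.

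The other genes of the pathway were counted in the same way. Of 5 further accessory genes of PRC2, 2 had both peaks, 1 had Max only and 2 had neither, beside 14.6% of protein-coding genes with Bio-Myc, 34.8% with Max and 12.7% with both. The promoters of E130012A19Rik, Lcorl and Lcor are CpG-rich, and for such genes the shares were 27.3%, 61.9% and 24.4%. Those of Phf1 and AU022751 are not CpG-rich. E130012A19Rik, the earlier symbol of the elongin-binding subunit Epop, had a Bio-Myc peak with a score of 148 and rank 1627 and a Max peak with a score of 324 and rank 2123, each with 1 E-Box. Lcorl, from which a subunit of the PALI type is made, had both as well, with scores of 94.6 for Bio-Myc and 417.5 for Max. Phf1, the remaining Polycomb-like gene, had a Max peak (score 105) and no Bio-Myc peak within 1 kb, as did Phf19. Lcor and AU022751, which encodes the PRC2 inhibitor of germ cells, had neither.

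Of the 3 genes of the family of enzymes that remove the mark, none had both peaks within 1 kb, where 12.7% of protein-coding genes did, so that 0 of 3 is near the background. Kdm6a, on chromosome X, had a Bio-Myc peak over its TSS (score 111, rank 2495) with no Max peak nearer than 1785.7 kb. Kdm6b had a Max peak 1405 bp and a Bio-Myc peak 3555 bp from its TSS, thus both within 5 kb. Uty, on chromosome Y, had neither. With 3 genes this is a description of each and no comparison of the groups.

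Rbbp4 and Rbbp7 also serve the NuRD, Sin3, CAF-1 and NURF complexes, and of 20 other subunits of these, 5 had Bio-Myc and 11 had Max, and the 5 had both. These 5 were the NuRD genes Mta2, Mbd3 and Gatad2a, the Sin3 scaffold Sin3a and the CAF-1 gene Chaf1b. The 6 with Max only included the deacetylase Hdac2, whose Max peak had a score of 1601 and rank 46. The remaining 9 had neither within 1 kb, among them the deacetylase Hdac1 and the helicases Chd3 and Chd4. Beside the backgrounds of 14.6% and 34.8%, these are 25% and 55% of the list, and 12.7% of protein-coding genes had both. Most of the 20 genes have a CpG-rich promoter. For protein-coding genes of that kind the shares were 27.3% for Bio-Myc, 61.9% for Max and 24.4% for both, so the list is near that background.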

How the data were processed

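ChIP-Seq was made for 4 samples with 1 library each, and the Bio-Myc and Max peak lists were analysed. The authors sequenced on an Illumina HiScanSQ (CASAVA 1.8 in the submitters' notes), mapped reads to mm9 with Bowtie 0.12.7, allowing 2 mismatches and keeping reads that hit 1 place, merged duplicates, and ran MACS 1.4.1 per library against the mock or IgG ChIP at a p-value of 1e-08. The deposited score is minus 10 times the log10 of that p-value. Since it grows with read number, and the lists differ in length, scores, ranks and percentiles were read within a list. Depth is not in the lists. Unique mapping leaves out repeats.

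Peaks (3962 Bio-Myc, 11570 Max) were set beside the TSSs of GENCODE M1 (Ensembl 65), whose assembly has the chromosome lengths of mm9. Distances run from a TSS to the nearest base of a peak, and coordinates are 1-based. Motifs were exact matches in the mm9 sequence. Python 3.11.15, numpy 2.4.6, pysam 0.24.0, matplotlib 3.10.9 and samtools 1.23.1 were used, and the functions that find peaks, distances and sites were tested on simulated data, where 13 of 13 steps were exact. All 10 genes are named, with genes that share their promoter peaks and 3 lists of related genes by counts. Members and lists were chosen with earlier results of these data known. Alternatives were other windows, p-value limits, TSS choices, peak numbers and parts of the peak.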

Additional observations from a re-analysis of the deposited data

How the results depend on the processing

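Of 42 alternative counts of PRC2 genes, 30 stayed within 1.5 times the reported count. The p-value limit mattered most for Bio-Myc. At 1e-09 Mtf2 was lost, and at 1e-11 and at 1e-15 Eed too, which left 3 genes with Bio-Myc and 3 with both peaks within 1 kb (backgrounds of 10.2% and 8.82% at 1e-11, 6.85% and 5.85% at 1e-15), and at 1e-15 also 3 with Bio-Myc within 5 kb. Ezh2, Suz12 and Rbbp4 kept both peaks under every window and limit tried. With only the 3962 highest-scoring Max peaks, as many as in the Bio-Myc list, 4 genes had Max (background 15.5%) and 3 had both (8.33%), since Eed, Ezh1, Mtf2 and Phf19 fall below that score. The E-Box counts depend on how much of the peak is read. For Bio-Myc 1 gene held CACGTG in the central 500 bp (37.0% of all peaks), 0 in the central 200 bp (19.6%) and 4 with variants. For Max 1 gene held it in the central 200 bp (19.6%), Phf19, and 7 did with variants. With the outermost TSS alone, Phf19 lost its Max peak, then 8299 bp away, and the Max peak of Aebp2 was 519 bp away. No paired analysis was possible because each ChIP has 1 library, and for the same reason no replicate could be left out. Read depth, which is unknown, limits what can be said of genes without a peak, since a site below the authors' limit is not in the lists.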
